A study of Mus musculus with 4 samples.

Results

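Complex I of the respiratory chain, NADH:ubiquinone oxidoreductase, was examined through the 35 rows of the deposited value table whose gene symbol begins with Nduf, of 18091 rows in all. These rows cover 7 core subunits, 26 accessory subunits, 1 assembly factor (Ndufaf1) and Ndufa4, which carries the family name but is now counted as a subunit of cytochrome oxidase, complex IV. Messenger RNA was measured in quadriceps muscle of CD-1 male mice aged 5 weeks. Lin28A Tg males carry a transgene for Lin28A, which binds RNA and keeps precursors of the let-7 microRNA family from being processed; there were 2 such samples. The other 2 samples came from WT males of the same strain and age. RNA was copied into biotinylated cRNA and read on Illumina bead arrays, 1 per sample, where the fluorescence intensity of a probe follows the level of its transcript. The promoter that drives the transgene is not given in the sources used here, and the labels number the males without saying more about them. The p-values below rest on no more than how far these 4 samples spread. The test used, limma, draws the spread of each gene toward that of all tested genes.

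Complex I takes electrons from NADH in the mitochondrial matrix, passes them to ubiquinone and pumps protons across the inner membrane. It is L-shaped: a peripheral arm in the matrix holds the NADH site and the iron-sulfur clusters, and a membrane arm holds the proton channels. The core subunits carry out catalysis; the accessory subunits surround them and are needed for assembly and stability, and assembly factors bind intermediates without staying in the finished enzyme. Skeletal muscle relies on the complex for oxidative ATP production, most in slow and oxidative fibres. The membrane-arm core subunits encoded in mitochondrial DNA were not analysed here.

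The 4 arrays read as skeletal muscle, with the actin gene Acta1 at 33637 and 25714 in Lin28A Tg samples and 26924 and 30883 in WT samples. Log2 intensities of the 7897 genes above background correlated at r = 0.990 between the Lin28A Tg arrays and at r = 0.979 between the WT arrays. WT replicate 2 correlated more closely with the Lin28A Tg arrays (r = 0.985 and 0.989) than with WT replicate 1. Both WT arrays stood apart in other respects. Of 20 hepatocyte marker genes, 14 read at least 2-fold higher on WT replicate 1 than on every other array. The summed intensity of all 20 was 1911 and 2196 in Lin28A Tg samples and 25123 and 2043 in WT samples; albumin (Alb) itself was not above background on any array. WT replicate 2 had the highest summed slow-fibre signal, the 9 slow-fibre genes summing to 1899 and 3853 in Lin28A Tg samples and 1531 and 9441 in WT samples. Of these, Myh7 and Tnni1 were not above background on any array. The part of either difference in the results on complex I was not tested, and results are therefore also given without each WT array.

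Most complex I transcripts read slightly lower in Lin28A Tg muscle, and no single gene passed the test. Of 35 genes, 32 exceeded background on all 4 arrays and were tested. Ndufs1, the largest core subunit, and Ndufab1, the mitochondrial acyl carrier protein, were not above background on any array, and Ndufb11 was above it on WT replicate 2 alone. Among the 32 tested genes 28 had a negative log2 difference (Lin28A Tg minus WT), as did 46.6% of all 7897 genes tested. The median log2 difference was -0.15, a fold of 0.903, against 0.01 for all tested genes. In whole muscle, fewer cells of a type and less RNA per cell cannot be told apart. Both Lin28A Tg arrays lay below both WT arrays for 15 of the 32 (16.8% of all tested genes did so) and above them for 2 (21.7%). The difference between the groups was larger than the gap between replicates in either group for 12 genes that were lower (11.7% of all tested genes) and for 2 that were higher (15.2%).

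With limma, 0 of the 32 had an adjusted p under 0.05, as did 0% of all tested genes, and the members' adjusted p ran from 0.481 to 0.996. At an unadjusted limma p under 0.05, 11 were lower (3.81% of all tested genes) and 1, Ndufaf1, was higher (5.05%). The median standard error of a member's log2 difference was 0.10. With 2 arrays against 2, an exact permutation test of any single value cannot give a two-sided p below 0.333.

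**Figure D1:**
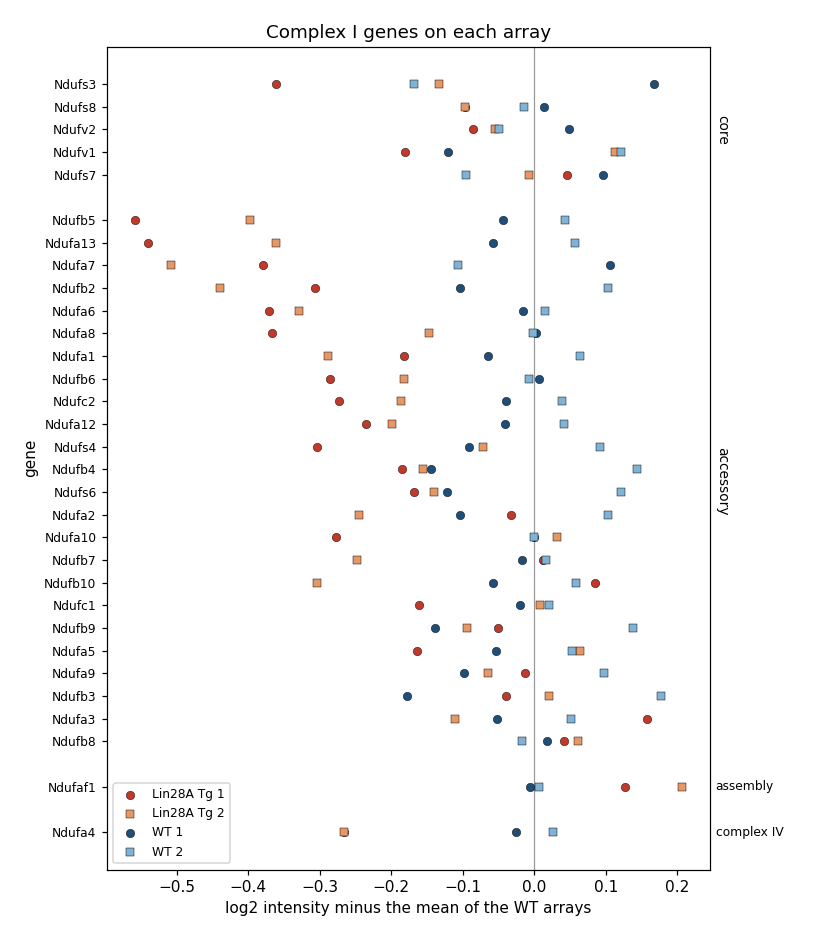
Log2 intensity of 31 of the 32 tested genes on each array, minus the mean of the WT arrays for that gene. Each point is 1 array, red and orange for Lin28A Tg and blue for WT, with genes grouped as core, accessory and assembly and Ndufa4 at the foot. The 15 genes whose Lin28A Tg points all lie left of their WT points include 12 of the 24 accessory subunits.

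The core subunits of the peripheral arm differed little. Their 6 tested genes had a median log2 difference of -0.08, against 0.01 for all tested genes. Of the 6, 5 were negative (46.6% of all tested genes), 2 lay below without overlap (16.8%) and 0 above (21.7%). At an unadjusted limma p under 0.05, 0 were lower (3.81% of all tested genes) and 0 higher (5.05%). Ndufv1, which binds NADH and the flavin cofactor, read 3074 and 3766 in Lin28A Tg samples and 3202 and 3787 in WT samples. The groups overlap, and the replicates within each group lie farther apart than the group means. Its partner Ndufv2, an iron-sulfur subunit, read 6885 and 7033 in Lin28A Tg samples and 7558 and 7059 in WT samples. The Lin28A Tg arrays were both lower, though the higher of them nearly equalled WT replicate 2, and the log2 difference of -0.07 was -0.02 without WT replicate 1 and -0.12 without WT replicate 2.

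Ndufs7 lines the site where ubiquinone is reduced. It read 5193 and 5003 in Lin28A Tg samples and 5375 and 4705 in WT samples, with both Lin28A Tg values between those of WT. Ndufs3 supports the assembly of this part of the arm, and it had the most negative core difference. It read 1359 and 1591 in Lin28A Tg samples and 1960 and 1552 in WT samples, a log2 difference of -0.25 (SE 0.15, limma adjusted p = 0.733). Only WT replicate 1 was high, and the difference was -0.08 without that array and -0.41 without WT replicate 2. Ndufs8, which carries iron-sulfur clusters next to the quinone site, read 2887 on both Lin28A Tg arrays and 3116 and 3056 in WT samples. The groups did not overlap, at a log2 difference of -0.10 (SE 0.06, limma adjusted p = 0.725).

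For both Ndufv1 and Ndufs7 the sign depended on which array was left out. The log2 difference of Ndufv1 was -0.03, and 0.11 without Lin28A Tg replicate 1. That of Ndufs7 was 0.02, and -0.08 without WT replicate 2.

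Accessory subunits made up 24 of the 32 tested genes. Of these 24, 22 had a negative log2 difference (46.6% of all tested genes did), 12 lay below without overlap (16.8%) and 1 above (21.7%), and 10 were lower at an unadjusted limma p under 0.05 (3.81%). Their median was -0.16. The accessory and the core medians were not tested against each other, and their ranges overlapped, from -0.48 to 0.05 and from -0.25 to 0.02.

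In the peripheral arm, Ndufa6, a small protein of the LYR family that sits near the quinone site, had the smallest p of all members. It read 4808 and 4949 in Lin28A Tg samples and 6149 and 6282 in WT samples, a log2 difference of -0.35 (SE 0.06, limma adjusted p = 0.481). The replicates of each group lay close together and the groups were well apart. The difference was between -0.33 and -0.37 whichever array was left out. Ndufa7, another accessory subunit of this arm, read 3361 and 3074 in Lin28A Tg samples and 4705 and 4061 in WT samples, at -0.44 (SE 0.10, adjusted p = 0.508). Its WT arrays differed from each other by more than its Lin28A Tg arrays, yet both lay above them. With 1 array left out the Ndufa7 difference ran from -0.34 (without WT replicate 1) to -0.55 (without WT replicate 2). Ndufa12, which takes the place of the assembly factor Ndufaf2 late in assembly, read 4479 and 4590.4 in Lin28A Tg samples and 5121 and 5422 in WT samples, at -0.22 (SE 0.06, adjusted p = 0.539).

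The other accessory subunits of the peripheral arm had smaller differences. Ndufs4 is needed for a stable NADH-binding module, and its loss causes Leigh-like encephalopathy in mice; it read 1420 and 1668 in Lin28A Tg samples and 1645 and 1868 in WT samples. The highest Lin28A Tg value exceeded the lowest WT value, and the log2 difference was -0.19 (SE 0.12). The zinc-binding subunit Ndufs6 read 11299 and 11522 in Lin28A Tg samples and 11672 and 13816 in WT samples, at -0.15 (SE 0.10). Its groups did not overlap, but WT replicate 2 alone was well above the other arrays. Ndufa2, Ndufa5 and Ndufa9 overlapped between the groups, at -0.14, -0.05 and -0.04.

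In the membrane arm, Ndufb5 had the largest difference of all members with all arrays and no background correction. Ndufb2 exceeded it after normexp with an offset of 16, and Ndufa7 (-0.55, against -0.43 for Ndufb5) without WT replicate 2. Without Lin28A Tg replicate 1, both Ndufa7 (-0.51) and Ndufb2 (-0.44) exceeded Ndufb5 (-0.40). Ndufb5 read 270.3 and 302 in Lin28A Tg samples and 386 and 410.2 in WT samples. This is a log2 difference of -0.48 (SE 0.08, limma adjusted p = 0.481), or a fold of 0.718. Ndufa13, also known as GRIM-19 and needed for assembly of the membrane arm, read 6012 and 6806 in Lin28A Tg samples and 8398 and 9092 in WT samples. Its log2 difference was -0.45 (SE 0.09, adjusted p = 0.481), a fold of 0.732. For both genes every Lin28A Tg value was below every WT value by more than the replicates differed, and with any 1 array left out the differences lay between -0.40 and -0.56 for Ndufb5 and between -0.36 and -0.54 for Ndufa13.

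Ndufb2 read 137 and 125 in Lin28A Tg samples and 158 and 182 in WT samples, at -0.37 (SE 0.10, adjusted p = 0.519). Its signal was close to the background of 84.8, which compresses folds: after normexp background correction with an offset of 16 the difference was -0.63. With 1 array left out the difference ran from -0.27 (without WT replicate 2) to -0.48 (without WT replicate 1). Ndufa8, a subunit held by disulfide bonds on the outer face of the membrane arm, read 2694 and 3136 in Lin28A Tg samples and 3476 and 3467 in WT samples, at -0.26 (SE 0.09, adjusted p = 0.555). Its WT arrays were nearly equal and its Lin28A Tg arrays were not, and without Lin28A Tg replicate 1 the difference was -0.15.

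The remaining membrane-arm genes without overlap differed less. The X-linked gene Ndufa1 read 4753 and 4419 in Lin28A Tg samples and 5158 and 5641 in WT samples, at -0.24 (SE 0.08). Ndufb6 read 3132 and 3367 in Lin28A Tg samples and 3837 and 3801 in WT samples, at -0.23 (SE 0.07). Ndufc2 read 4089 and 4341 in Lin28A Tg samples and 4808 and 5076 in WT samples, at -0.23 (SE 0.07). In each of these both Lin28A Tg arrays were below both WT arrays, with limma adjusted p from 0.531 to 0.543. Ndufb4 was dim, at 98.5 and 100.6 in Lin28A Tg samples and 101 and 124 in WT samples, so that its groups did not overlap but the size of its difference rested on WT replicate 2.

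Overlapping or higher values were seen for the rest of the membrane arm. Ndufa10, Ndufb7, Ndufb10, Ndufc1, Ndufb9, Ndufb3 and Ndufa3 overlapped between the groups, at log2 differences from -0.12 to 0.02. Ndufb8, a subunit of the distal membrane arm, was the only accessory subunit above WT without overlap, at 10219 and 10356 in Lin28A Tg samples and 10051 and 9807 in WT samples. That is a log2 difference of 0.05 (SE 0.06, limma adjusted p = 0.862), smaller than its standard error, and of 0.03 without WT replicate 2. With all arrays and no background correction the medians of the arms were nearly equal. The median was -0.15 over 14 tested genes of the peripheral arm and -0.15 over 16 of the membrane arm. Without Lin28A Tg replicate 1 these medians were -0.10 and -0.17. They were -0.15 and -0.19 after normexp with an offset of 16, and -0.14 and -0.12 with no filter. In these arms 6 and 8 genes lay below WT without overlap (16.8% of all tested genes did so). At an unadjusted limma p under 0.05, 3 and 7 were lower (3.81%). The arms were not tested against each other. This grouping by arm was added after the data were examined.

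**Figure D2:**
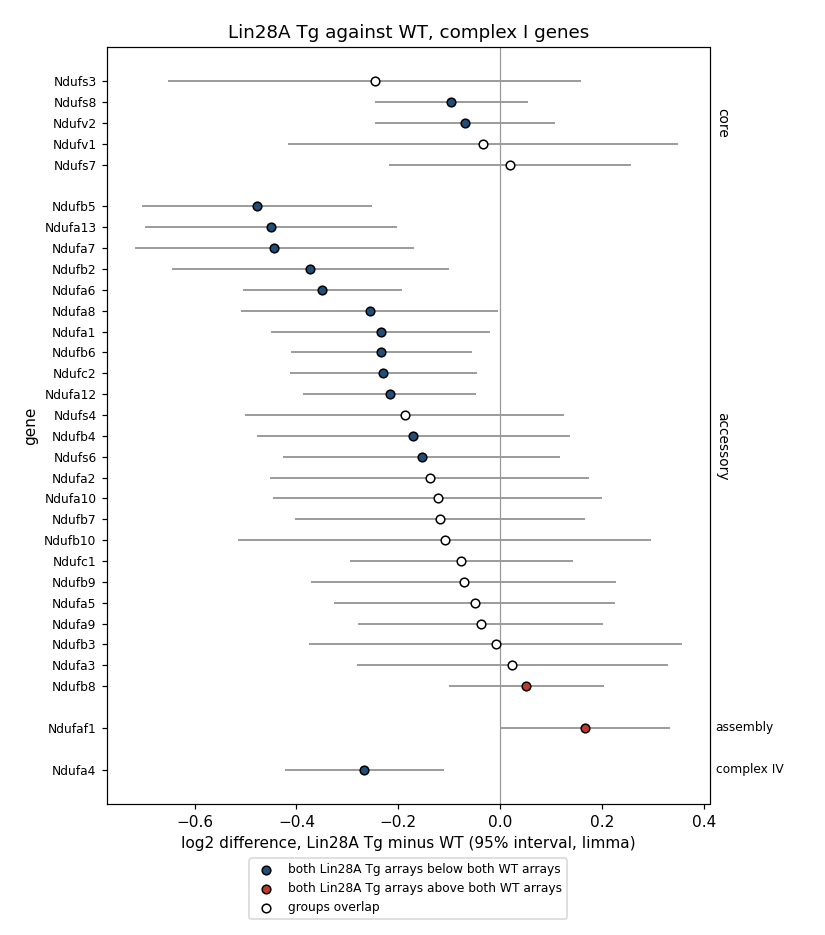
Log2 difference, Lin28A Tg minus WT, for 31 of the 32 tested genes, with the 95% interval from limma as a bar. Filled blue points are the 15 genes with both Lin28A Tg arrays below both WT arrays, red points the 2 with both above, and white points those whose groups overlap. Intervals of 11 genes lie below 0 and that of Ndufaf1 lies just above it, before adjustment for the genes tested.

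The assembly factor Ndufaf1 differed in sign from most subunits. It is a chaperone of the intermediate that builds the membrane arm, and it read 279 and 295 in Lin28A Tg samples and 254 and 256 in WT samples. Both Lin28A Tg arrays were higher, at a log2 difference of 0.17 (SE 0.06, limma adjusted p = 0.560), which did not pass. Its unadjusted p was no longer under 0.05 with any 1 array left out. It was the only assembly factor among the rows selected by symbol. Of other complex I genes, 5 are listed in the table under older clone names and were matched to current symbols through RefSeq. Ndufv3, a small accessory subunit, read 2768 and 3193 in Lin28A Tg samples and 3274 and 3455 in WT samples, at -0.18 (SE 0.09, adjusted p = 0.704). The assembly factors Ndufaf4, Ndufaf5, Ndufaf7 and Ndufaf3 overlapped between the groups, at 0.04, -0.12, 0.06 and -0.05. The SE of Ndufaf5 was 0.42, with 325 and 694 in WT samples. Ndufaf7 and Ndufaf3 read close to the background of 84.8, which compresses folds.

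Assembly factors with other names were mixed. Of 12 listed, 11 were tested, 7 with a negative difference (46.6% of all tested genes), 3 below WT without overlap (16.8%) and 2 above it (21.7%). Their median was -0.05 and 0 had a limma adjusted p under 0.05 (0% of all tested genes). At an unadjusted limma p under 0.05, 1 was lower (3.81%). Dmac1, which acts in assembly of the distal membrane arm, read 918 and 973 in Lin28A Tg samples and 1288 and 1148 in WT samples, at -0.36 (SE 0.08, adjusted p = 0.508). Ecsit, which acts in the same intermediate as Ndufaf1, read 189.7 and 229 in Lin28A Tg samples and 239.9 and 285 in WT samples, at -0.33 (SE 0.14, adjusted p = 0.612). That difference was -0.19 without Lin28A Tg replicate 1, -0.20 without WT replicate 2 and -0.46 without Lin28A Tg replicate 2. Tmem70, which assists both complex I and ATP synthase, read 170.2 and 169 in Lin28A Tg samples and 155 and 157 in WT samples, at 0.12 (SE 0.06, adjusted p = 0.648), and at 0.19 after normexp with an offset of 16.

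Ndufa4, the complex IV subunit, read 13816 on both Lin28A Tg arrays and 16324 and 16921 in WT samples. Its log2 difference was -0.27 (SE 0.06, limma adjusted p = 0.507), or a fold of 0.831, with the groups apart. Equal readings on 2 arrays, as here and for Ndufs8 and Ndufa10, come with a table in which values of equal rank are nearly the same on every array, so a gap of 0 is not a measure of replicate error.

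The promoters of a few members are shown because they belong to the genes with the clearest differences and to the 2 that lay above WT. They are taken from RefSeq on build GRCm38.p6 and span 250 bases before to 50 bases after the transcription start, written 5′ to 3′ on the gene's strand. A promoter entry was found for 31 of the 35 genes; where a gene had several, the first listed was used. Capitals mark matches, on either strand, to GCATGCGC (NRF1), CCGGAAG (ETS family, as bound by GABPA), AAGATGGC (YY1), GGGCGG (Sp1) and AAGGTCA (ERR), factors known to act at nuclear genes of the respiratory chain. No motif contains another.

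Ndufb5, chr3:32736813-32737112, plus strand, with no match:
Ndufb5: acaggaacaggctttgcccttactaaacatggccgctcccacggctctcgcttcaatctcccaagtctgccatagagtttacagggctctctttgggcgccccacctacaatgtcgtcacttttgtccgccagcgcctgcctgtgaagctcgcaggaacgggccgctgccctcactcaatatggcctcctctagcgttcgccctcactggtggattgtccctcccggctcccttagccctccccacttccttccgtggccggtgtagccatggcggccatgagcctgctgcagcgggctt
Ndufa13, chr8:69901971-69902270, minus strand, with 3 Sp1 matches:
Ndufa13: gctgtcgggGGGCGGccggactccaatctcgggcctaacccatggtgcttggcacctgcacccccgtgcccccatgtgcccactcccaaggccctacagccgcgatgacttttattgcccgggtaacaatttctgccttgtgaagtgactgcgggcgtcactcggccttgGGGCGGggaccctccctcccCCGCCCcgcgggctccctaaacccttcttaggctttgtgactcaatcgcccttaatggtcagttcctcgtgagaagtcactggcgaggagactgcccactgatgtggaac
Ndufa6, chr15:82354242-82354541, minus strand, the smallest p, with an NRF1 match that begins 83 bases before the start and an Sp1 match:
Ndufa6: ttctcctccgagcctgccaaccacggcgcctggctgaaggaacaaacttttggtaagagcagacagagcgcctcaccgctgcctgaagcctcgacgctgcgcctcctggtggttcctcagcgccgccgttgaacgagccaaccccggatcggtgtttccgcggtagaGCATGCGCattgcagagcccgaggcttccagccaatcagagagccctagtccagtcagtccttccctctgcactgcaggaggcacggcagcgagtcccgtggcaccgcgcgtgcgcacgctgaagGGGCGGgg
Ndufb8, chr19:44555393-44555692, minus strand, above WT, with a YY1 match at base 39 after the start and an Sp1 match:
Ndufb8: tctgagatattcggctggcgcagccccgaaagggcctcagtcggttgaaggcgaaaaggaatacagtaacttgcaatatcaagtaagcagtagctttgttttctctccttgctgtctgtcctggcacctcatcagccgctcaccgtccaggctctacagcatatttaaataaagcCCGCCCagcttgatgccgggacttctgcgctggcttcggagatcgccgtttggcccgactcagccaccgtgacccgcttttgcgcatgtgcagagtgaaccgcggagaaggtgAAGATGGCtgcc
Ndufaf1, chr2:119662785-119663084, minus strand, above WT, with an ETS match that begins 18 bases before the start and an Sp1 match:
Ndufaf1: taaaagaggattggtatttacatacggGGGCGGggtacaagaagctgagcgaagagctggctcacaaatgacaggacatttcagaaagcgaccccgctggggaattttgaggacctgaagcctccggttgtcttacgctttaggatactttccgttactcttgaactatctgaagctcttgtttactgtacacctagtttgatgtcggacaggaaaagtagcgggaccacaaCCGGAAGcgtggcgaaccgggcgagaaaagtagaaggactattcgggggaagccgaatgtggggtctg

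The YY1 letters occurred in 7 of the 31 promoters (22.6%), against 2.88% of all 27025 promoters of this length. All 7 began between base 23 and base 39 after the start, and these were Ndufa3, Ndufa9, Ndufb8, Ndufc1, Ndufs4, Ndufs6 and Ndufs7. The YY1 letters contain ATG, the bases of a start codon. Whether these matches mark the coding start of the gene was not tested. Of the 15 genes that lay below WT without overlap, which all have a promoter entry, 1 (Ndufs6) held the YY1 letters. Sp1 letters were in 15 of the 31 (48.4%, against 35.9% of all promoters) and ETS letters in 5 (16.1%, against 9.12%). NRF1 letters were in 2, Ndufa6 and Ndufa8 (6.45%, against 2.81%), and ERR letters in 2, Ndufb2 and Ndufb4 (6.45%, against 4.66%). Among the same 15 lower genes, Sp1 letters were in 8, and ETS, NRF1 and ERR letters in 2 each. These are matches of letters in a short window and do not show binding.

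Genes of factors that drive respiratory chain transcription had a median difference near 0, with tested genes from -0.11 to 0.12. Of 11 listed, 7 were tested, with 3 negative (46.6% of all tested genes), 1 below WT without overlap (16.8%) and 0 above it (21.7%). Their median log2 difference was 0.01. None had an unadjusted limma p under 0.05, and the smallest adjusted p was 0.776. Tfam, which packages mitochondrial DNA, read 136 and 134 in Lin28A Tg samples and 143 and 142 in WT samples, at -0.08 (SE 0.06), and at -0.14 after normexp with an offset of 16. Esrra, a nuclear receptor of mitochondrial genes, was at -0.11 (SE 0.11), and at 0.02 without WT replicate 2. The mitochondrial RNA polymerase gene Polrmt was at 0.07 (SE 0.07), at 0.01 without Lin28A Tg replicate 2, at 0.04 without WT replicate 2 and at 0.13 without Lin28A Tg replicate 1. Gabpa, Esrrg and Yy1 were not above background on any array. Ppargc1a, Nrf1 and Tfam read close to the background of 84.8, which compresses folds.

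Genes of other respiratory chain complexes also had mostly negative differences, with medians that varied by complex. In complexes II to V, 38 genes were tested, 29 were negative (46.6% of all tested genes), 20 lay below WT without overlap (16.8%) and the median was -0.12. By complex the median was -0.14 for 5 genes of complex II, -0.03 for 6 of complex III, -0.14 for 13 of complex IV and -0.04 for 14 of complex V. Among 68 mitochondrial ribosomal protein genes, 51 were negative, 32 lay below WT without overlap and the median was -0.10. The share below WT was 46.9% for complex I, 52.6% for complexes II to V and 47.1% for mitochondrial ribosomal proteins, against 16.8% of all tested genes. No difference between these groups of genes was tested.

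**Figure D3:**
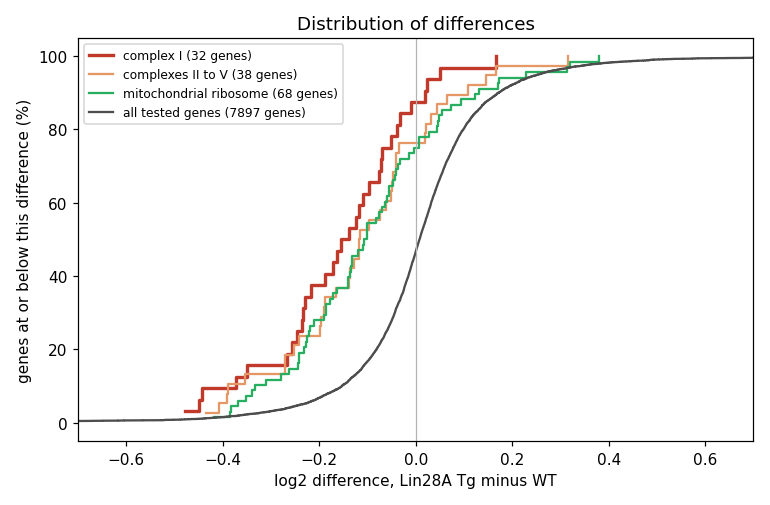
Cumulative share of genes, in percent, at or below each log2 difference, Lin28A Tg minus WT, for the 32 complex I genes (red), 38 genes of complexes II to V (orange), 68 mitochondrial ribosomal protein genes (green) and all 7897 tested genes (grey, drawn between -0.7 and 0.7). The mitochondrial curves run close together, with medians of -0.15, -0.12 and -0.10, left of the median of 0.01 for all genes.

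Array by array, complex I genes were lower on each Lin28A Tg array than on each WT array, and the WT arrays also differed from each other. The mean deviation of the 32 genes from their own 4-array means was -0.10 and -0.06 on the Lin28A Tg arrays and 0.04 and 0.12 on the WT arrays (log2). The median difference over the 32 genes was -0.11 for Lin28A Tg replicate 1 minus WT replicate 1, -0.26 for Lin28A Tg replicate 1 minus WT replicate 2, -0.11 for Lin28A Tg replicate 2 minus WT replicate 1 and -0.20 for Lin28A Tg replicate 2 minus WT replicate 2. Within groups it was 0.03 between the Lin28A Tg arrays and 0.08 between the WT arrays (replicate 2 minus replicate 1). Thus the gap within the WT pair was smaller than each gap between the groups, but not by much for WT replicate 1.

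WT replicate 2 was the highest array for 19 of the 32 genes, and Lin28A Tg replicate 1 the lowest for 19. The same shares were not computed for all tested genes, so these counts are not particular to complex I. WT replicate 2 also had the highest mean of slow-fibre genes. The 7 above background had a mean deviation of -0.48 and 0.10 on the Lin28A Tg arrays and -0.76 and 1.14 on the WT arrays. Single genes went otherwise: Casq2 was highest on Lin28A Tg replicate 2 (152, against 116 on WT replicate 2). Tpm3 was nearly flat, at 92.8 and 94.7 in Lin28A Tg samples and 94.8 and 94.6 in WT samples. The mean deviation of the 10 fast-fibre genes was -0.04 and 0.05 on the Lin28A Tg arrays and -0.01 and 0.00 on the WT arrays, although single genes differed more, as Myh1 did at a log2 difference of 0.51 (Myh1 was chosen after its values were seen). Without WT replicate 2 the median difference of complex I genes was -0.10, with 23 of 32 negative (44.3% of all tested genes); without WT replicate 1, which carried the hepatocyte transcripts, it was -0.22, with 29 of 32 negative (48.8%). Separation of the groups is more common with 3 arrays. Without WT replicate 2, 17 genes lay below WT without overlap (30% of all tested genes) and 5 above (39.8%); without WT replicate 1, 24 lay below (34%) and 3 above (36.2%). At an unadjusted limma p under 0.05, 6 were lower without WT replicate 2 (4.03% of all tested genes) and 12 without WT replicate 1 (4.17%). How far fibre makeup entered the result was not tested.

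**Figure D4:**
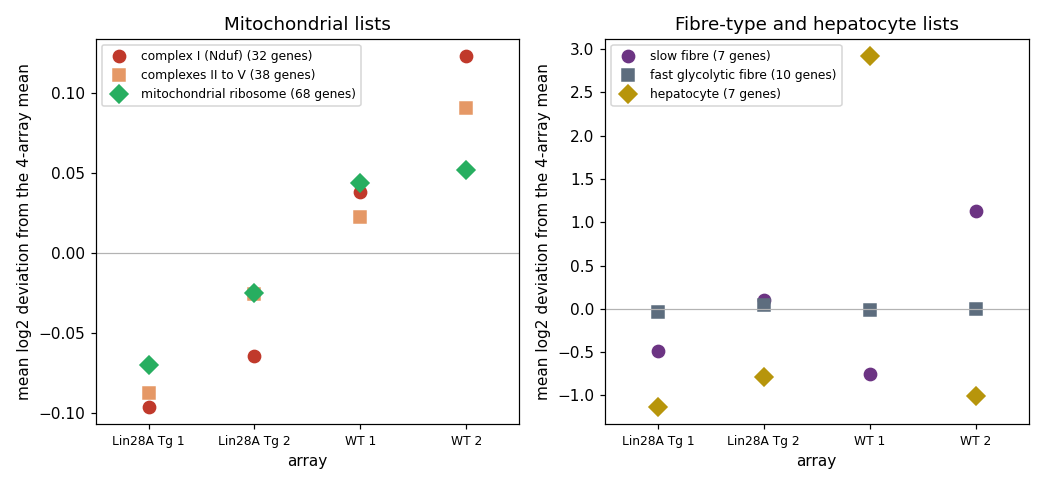
Mean log2 deviation of the genes of each list from their own mean over the 4 arrays, for each array; each point is 1 list on 1 array. Left, complex I, complexes II to V and the mitochondrial ribosome are all below 0 on both Lin28A Tg arrays and above 0 on both WT arrays; right, on a wider scale, slow-fibre genes are highest on WT replicate 2 (1.14) and hepatocyte genes on WT replicate 1 (2.92).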

How the data were processed

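The authors deposited intensities on a linear scale, named by gene symbol. RNA was extracted with Trizol, cleaned with DNase treatment and labelled as biotin cRNA, per the labels' protocols. The authors had normalized the arrays to each other: values of equal rank differed by a median of 0.0916% between arrays. No background had been taken off (minimum 72.8). The software used is not given in the sources used here. Another table was not used, since its 8 value columns match no sample label.

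Symbols were updated through RefSeq names (assembly GRCm38.p6; 14090 current, 3066 older, 50 ambiguous, 885 unmatched). The brightest row per symbol was kept (17904 genes). Background was the mode of all values, 84.8, with an SD of 0.053 (log2). Genes above 90.0 (mode plus 1.64 SD) on at least 2 arrays were tested. Lin28A Tg was compared with WT on log2 intensity by fitting limma 3.58.1 (lmFit, eBayes; R 4.3.3) to all tested genes with no covariate; p-values were adjusted by Benjamini-Hochberg (threshold 0.05). The fit was tested on simulated data. Python 3.11.15 with pandas 2.3.3 made the summaries.

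Members, lists and named genes were chosen with earlier results of these data known. Given in full are the core subunits, the 10 accessory subunits and up to 3 assembly factors with the smallest p, Ndufa4 and the most positive member of each class, plus 3 genes from each of 2 related lists; Ndufs4, Ndufs6, Ndufb4 and the older-name genes were added after their values were seen. The values of 1 core gene are not reported here singly but enter the counts and medians. Intensities of different probes are not compared. Alternatives were a pseudocount of 16, other filters, every row, trend and robust eBayes, a replicate block, normexp, median centring, an adjusted p under 0.10 and leaving out each array.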

Additional observations from a re-analysis of the deposited data

How the results depend on the processing

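No complex I gene had an adjusted p under 0.05 under any alternative run, nor under 0.10, and the smallest adjusted p of a member was 0.365, without WT replicate 2. The median log2 difference of complex I genes stayed negative in all settings, from -0.22 without WT replicate 1 to -0.10 without WT replicate 2. Over the same settings, with 1 array left out, the core median ran from -0.14 to -0.075, the accessory median from -0.25 to -0.10, genes below WT without overlap from 17 without WT replicate 2 to 24 without WT replicate 1, and genes above from 3 without WT replicate 1 to 5 without WT replicate 2. Fewer arrays make such separation easier. Over all tested genes 0 to 16 were called with 1 array left out, the 16 without WT replicate 2. With normexp at an offset of 16, Ndufaf1 was at 0.21. Among genes chosen by rule and reported singly, those reversed when 1 array was left out were Ndufs7 (-0.076 to 0.116), Ndufv1 (-0.180 to 0.113) and Esrra (-0.230 to 0.015). Other members changed sign as well. Of 32 members, 28 were negative with all arrays, 25 without Lin28A Tg replicate 1 and 26 without Lin28A Tg replicate 2. There were 29 without WT replicate 1 and 23 without WT replicate 2. The cause was not tested. With the replicate number as a block, 10 members were lower at an unadjusted limma p under 0.05 (276 of all 7897 tested genes). Without it, 11 were (301 of 7897). With the block 0 members were called and their median was -0.15. The deviations of same-numbered arrays correlated at r = 0.037 over tested genes, and the labels do not say that numbers pair the samples. The unadjusted count of lower members was 6 with trend and robust eBayes, 5 with normexp at an offset of 16 and 6 without WT replicate 2. The unadjusted count of higher members was 1 (Ndufaf1) without these changes (399 of 7897). It was 0 under the stricter filter (308 of 5578 tested genes), trend and robust eBayes (337 of 7897) and the replicate block (389 of 7897). It was also 0 with normexp at offsets of 16 (338 of 7897) and 50 (385 of 7897) and with median centring (357 of 7897). Signal near background limits Ndufb2, Ndufb4 and Ndufb9 and, among the older-name genes, Ndufaf3 and Ndufaf7. Of the members, 3 genes could not be tested.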
